A study of Mus musculus with 9 samples.

Results

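The mouse miRNA hairpins mmu-mir-28a, mmu-mir-28c, mmu-mir-151 and mmu-mir-708 (written below without the species prefix) were followed in B16F1 melanoma cells, an adherent line from C57BL/6J mouse skin. Their members were all entries of the deposited count table named for 1 of these 4 hairpins, either as a sequence tag or as a mature name. This gave 103 of the 6414 entries, 96 tags and 7 mature names, and 3 of the 4 hairpins had a tag, among 391 known hairpins with one. A tag was assigned to the 5p arm if it started less than 35 bases into its hairpin and otherwise to the 3p arm. The study held 3 libraries of unexposed control cells, 3 of cells exposed to 5 mM L-Tyr (L-tyrosine, the amino acid from which melanin is made) and 3 of cells that received 5-Brd-2′-dU (BrdU, a thymidine analogue taken up into DNA) at 2.5 µg/mL. All cells were cultured in supplemented DMEM, and the exposures lasted 72 h without a change of medium. All groups come from 1 cell line, and the labels do not say whether replicates were separate cultures, so p-values measure the spread between these libraries, which may be technical.

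A miRNA is cut from a hairpin as a duplex, and either strand, named 5p or 3p for its side of the hairpin, can be loaded into an Argonaute protein. Bases 2 to 8 of the loaded strand, the seed, carry most of the pairing with target mRNAs, so a shift of the first base changes the seed. The miR-28 family, to which miR-151 and miR-708 are related by sequence, derives from an old LINE-2 transposable element. The hairpins lie in introns of protein-coding genes, and in other tissues miR-151 has been studied together with its host gene, the focal adhesion kinase gene Ptk2.

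Both RefSeq mature strands of the 5p side carry the same seed, which is why they are shown first. They are taken from the RefSeq miRNA table (GRCm38.p6), in which 2 of 1738 mature records, these ones, hold the heptamer AGGAGCU at bases 2 to 8. The RefSeq table held no mature record of mir-151 or mir-28c, so the search did not cover these 2 and no reference start is given for them. The other lines are deposited tags in DNA letters, chosen to show the register of the heptamer. Capitals mark the heptamer, AGGAGCT in DNA letters, wherever it is whole.
miR-28a-5p, RefSeq: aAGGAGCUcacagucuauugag
miR-708-5p, RefSeq: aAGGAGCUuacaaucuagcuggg
mir-28a tag, start 13: aAGGAGCTcacagtctattg
mir-28a tag, start 15: ggagctcacagtctattgag
mir-28c tag, start 44: AGGAGCTcacagtctattga
mir-151 tag, start 7: tcgAGGAGCTcacagtctag
mir-151 tag, start 8: cgAGGAGCTcacagtctagt
mir-151 tag, start 9: gAGGAGCTcacagtctagt
mir-151 tag, start 9, with 1 more base: gAGGAGCTcacagtctagta
The start is the number of hairpin bases before the tag. The mir-151 tags therefore held the heptamer at bases 4 to 10, 3 to 9 or 2 to 8, depending on their start, and at bases 2 to 8 for start 9.

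The 3p strands do not share 1 seed. They are shown with bases 2 to 8 in capitals, to allow comparison with the 5p side.
miR-28a-3p, RefSeq: cACUAGAUugugagcugcugga
miR-708-3p, RefSeq: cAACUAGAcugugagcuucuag
mir-151 tag, start 42: cTAGACTGaggctccttgag
In the RefSeq table no other mature miRNA had the seed of miR-28a-3p or of miR-708-3p. The heptamer of miR-28a-5p stood at another place within the first 12 bases of miR-28b and miR-12180-3p, from base 1, and of miR-7080-5p, from base 3.

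In mm9, mir-28a lies at chr16:24827941-24828026 on the plus strand, in an intron of Lpp, a gene for a protein of cell adhesion sites. The hairpin mir-151 lies at chr15:73085245-73085312 on the minus strand, in an intron of Ptk2. The hairpin mir-708 lies at chr7:103397934-103398042 on the plus strand, in an intron of Odz4, a gene for a teneurin. All 3 share the strand of their host gene. The start 44 tag of mir-28c matched chr15:53445771-53445790 on the minus strand, in an intron of Samd12, and the other 4 mir-28c tags matched within this interval. Each of the 5 tags had 2 matches in mm9, the other at the mir-28a locus. Of the 5 mir-28c tags, 4 were listed with the same letters under mir-28a, and their counts under both names differed by at most 10 in any library. Reads of mir-28a and mir-28c thus cannot be told apart by sequence for any of the 5 tags, although the start 44 tag is listed under mir-28c only. Counts listed under both names are not independent. By the start rule the mir-28c tags fall on the 3p arm, from start 44 to start 47, although their letters are those of miR-28a-5p.

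The libraries held between 144452 and 424122 counts. The melanocyte miRNAs mir-211 and mir-204 together made up 0.542 to 2.86% of the counts, and mir-204 had at most 14 counts in a library. The 5-Brd-2′-dU library 3 stood apart. Its stromal and endothelial markers, with counts for 7 of 7 hairpins, made up 20.3% of its counts, mostly mir-143, against 0.17 to 0.831% in the other libraries. Its erythroid markers made up 0.542%, against at most 0.0595% elsewhere, and its leukocyte markers 0.11%, against at most 0.00756%. Each of the 7 stromal and endothelial hairpins had its highest count in this library. Of the erythroid and leukocyte lists only part rose. The erythroid sum came mostly from mir-451a (1462 counts) and mir-144 (523). The hairpins mir-486a and mir-486b had 43 and 40 counts, against 41 and 46 in 5-Brd-2′-dU library 1. The leukocyte sum came from mir-142a (306 counts) and mir-223 (115), while mir-150 and mir-155 had 0. The hepatic mir-122 had at most 20 counts. The arm values of the members that use this library, and most of their ratios, tag values and correlations, are therefore given without it too. Intervals and limits for single libraries cover counting error only.

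The members together made up 2.94% of all counts, nearly all from mir-151 with 2.76%. The levels below are given in CPM, the counts of a library scaled to a common total with TMM factors (trimmed mean of M values), which can be compared between libraries. The hairpin mir-708 had no tag, and its 2 mature names had 0 counts in all 9 libraries. A count of 0 allows up to 3 counts, or 7.07 to 20.8 CPM of the total count, so miR-708 was below detection at this depth in every group.

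**Figure D1:**
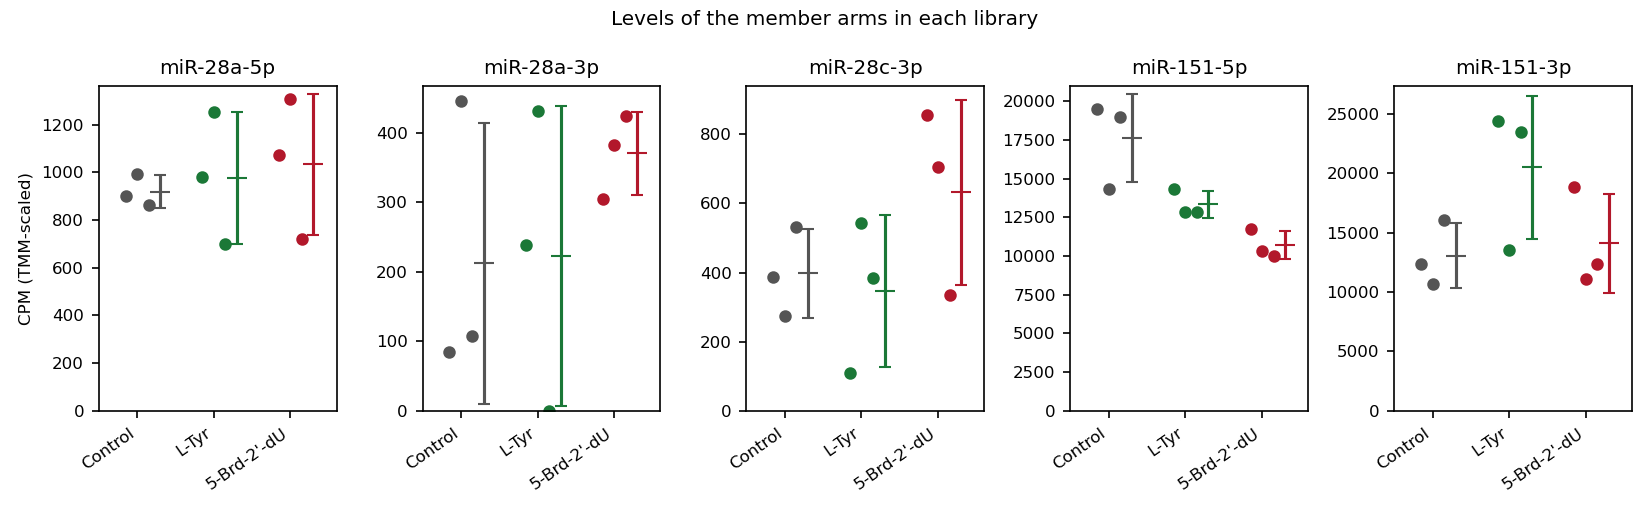
CPM (TMM-scaled, linear axis from 0) of the 5 member arms with counts in the control, L-Tyr and 5-Brd-2′-dU libraries; points are libraries in order of replicate number, and bars are the mean ± SD (n = 3). The miR-151-5p points of 5-Brd-2′-dU, from 10011 to 11734 CPM, lie below all control points, from 14324 to 19489 CPM.

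The 5p strand of miR-151 was lower in every 5-Brd-2′-dU library than in any control library. Its CPM was 19489, 14324 and 18977 in the controls, 14356, 12824 and 12809 with L-Tyr, and 11734, 10329 and 10011 with 5-Brd-2′-dU. The 5-Brd-2′-dU libraries also lay below all L-Tyr libraries, whereas L-Tyr library 1 and control library 2 overlapped. The mean was 17597 ± 2846 in control cells, 13330 ± 888.5 with L-Tyr and 10691 ± 916.9 with 5-Brd-2′-dU (SD, n = 3). The log2 fold change of 5-Brd-2′-dU relative to control was -0.67 (SE 0.209) and did not pass edgeR's quasi-likelihood test over all 281 arms (adjusted p = 0.138). It was -0.63 without 5-Brd-2′-dU library 3 (adjusted p = 0.255). When all 9 libraries shared 1 fit it was -0.72 and passed (adjusted p = 0.0496), and over all 18 alternatives it ran from -0.73 to -0.57, with adjusted p from 0.0496 to 0.408. An arm lower in every library was common: 37 of 281 arms (13.2%) had a lower CPM in all 5-Brd-2′-dU libraries than in all controls, and 22 of 251 (8.76%) than in all L-Tyr libraries. For L-Tyr relative to control the log2 fold change of miR-151-5p was -0.38 (SE 0.182, adjusted p = 0.427), and between the exposures, as 5-Brd-2′-dU minus L-Tyr, it was -0.26 (SE 0.187, adjusted p = 0.646), and -0.26 also without 5-Brd-2′-dU library 3.

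The 3p strand of miR-151 had its highest levels with L-Tyr. Its CPM was 12398, 10714 and 16062 in the controls, 24426, 13565 and 23508 with L-Tyr, and 18847, 11123 and 12358 with 5-Brd-2′-dU. L-Tyr library 2 lay within the control range, and the other 2 L-Tyr libraries lay above every control and 5-Brd-2′-dU library. This overlap depended on the scaling. Scaled by the total count, without TMM, every L-Tyr library lay above every control (15064 to 26244 against 10957 to 13639 CPM, exact permutation p = 0.1), and with the counts of mir-3963 left out they overlapped (exact permutation p = 0.2). The log2 fold change of L-Tyr relative to control was 0.68 (SE 0.267) and did not pass the test over 258 arms (edgeR adjusted p = 0.286). For 5-Brd-2′-dU relative to control it was 0.16 (SE 0.275, adjusted p = 0.831), -0.07 without 5-Brd-2′-dU library 1 and 0.25 without library 3. Between the exposures, as 5-Brd-2′-dU minus L-Tyr, it was -0.49 (SE 0.315, adjusted p = 0.583), and -0.44 without 5-Brd-2′-dU library 3. The rank of miR-151-3p among the 736 arms and other features with a count was 23 in control cells, 13 with L-Tyr and 21 with 5-Brd-2′-dU, and that of miR-151-5p was 17, 20 and 28. Scaling by the total count in place of TMM moved the median log2 fold change of all arms by 0.16 for L-Tyr relative to control and by -0.20 between the exposures, and no miR-151 arm changed direction under it.

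The arms of mir-28a and mir-28c were far less abundant, with group means of 212.1 to 1034 CPM. The level of miR-28a-5p was 919 ± 67.72 CPM in control cells, 976.1 ± 276.7 with L-Tyr and 1034 ± 296.3 with 5-Brd-2′-dU (SD, n = 3), and the groups overlapped. The 3p strand of mir-28a had 17, 193 and 24 counts in the controls, 37, 114 and 0 with L-Tyr, and 52, 167 and 120 with 5-Brd-2′-dU. Its counts varied more within control and L-Tyr than between groups. For miR-28c the counts were 78, 119 and 119, then 17, 144 and 71 with L-Tyr, then 146, 308 and 95 with 5-Brd-2′-dU. The largest log2 fold change of these 3 arms relative to control was 0.84 for miR-28a-3p with 5-Brd-2′-dU (SE 0.756, edgeR adjusted p = 0.61). Single control libraries moved it, to 2.06 without control library 2, 0.46 without control library 1 and 0.49 without control library 3. The log2 fold change of miR-28c with 5-Brd-2′-dU was 0.71 (SE 0.518, edgeR adjusted p = 0.525). These values were, without 5-Brd-2′-dU library 3, 0.73 for miR-28a-3p, 1.03 for miR-28c and, for miR-28a-5p, 0.42 against 0.21 with it. Between the exposures, as 5-Brd-2′-dU minus L-Tyr, they were 0.62, 1.18 and 0.30 without that library.

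**Figure D2:**
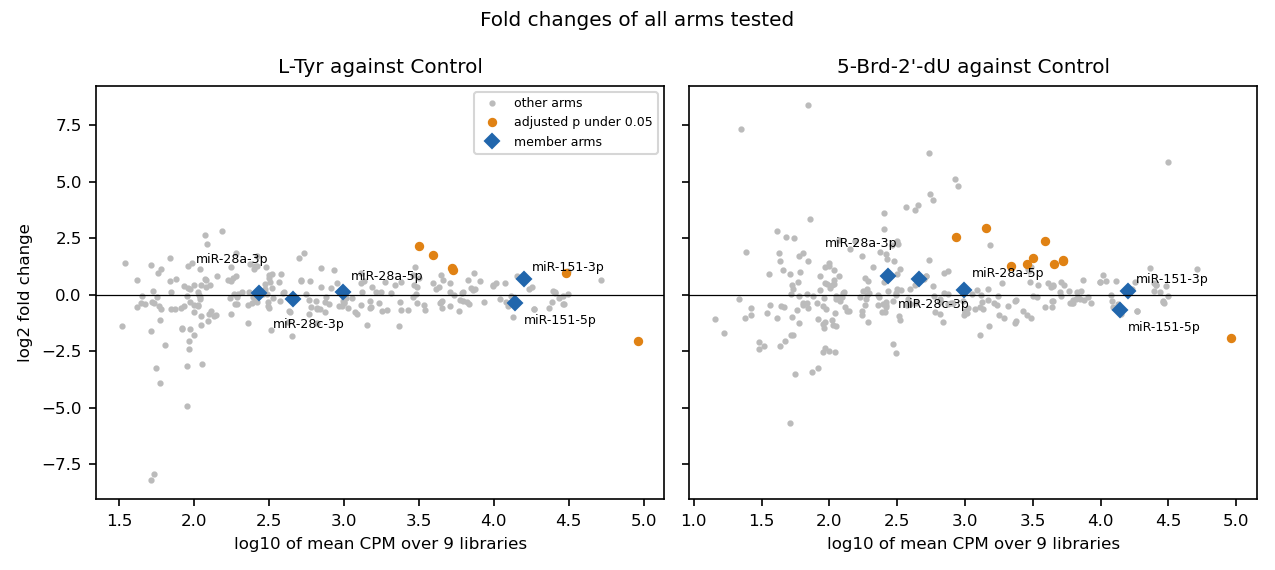
Log2 fold change (vertical axis) against the log10 of the mean CPM over 9 libraries (horizontal axis) for every arm tested, with each exposure relative to control. Blue diamonds are the 5 member arms, none of which passed, and orange points are the other arms with an adjusted p under 0.05, 6 with L-Tyr and 10 with 5-Brd-2′-dU.

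No member arm passed the test in any comparison by edgeR's quasi-likelihood test. The share of all arms that passed was 2.33% (6 of 258) for L-Tyr relative to control, 3.56% (10 of 281) for 5-Brd-2′-dU and 2.39% (6 of 251) between the exposures. At an unadjusted p under 0.05, 1 of 5 member arms passed with L-Tyr and 1 of 5 with 5-Brd-2′-dU, where the share over all arms was 13.6% and 19.9%. DESeq2's Wald test on these arm sums called 0 member arms in all 3 comparisons, where over all arms it called 19 with L-Tyr and 28 with 5-Brd-2′-dU. The paper lists both strands of miR-151 as changed with L-Tyr by DESeq2 on its own counts per mature miRNA, 5p lower and 3p higher. Its counts are another measure than these arm sums. The mean counts it gives are far below the mean arm sums of 3526 (5p) and 3783 (3p), most so for miR-151-3p.

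Within the mir-151 hairpin the balance of the strands did not overlap between control and exposed libraries. Control cells had more 5p than 3p counts in every library, and exposed cells had fewer in every library. The 5p share of the 5p and 3p counts was 61.1, 57.2 and 54.2% in control cells, 37, 48.6 and 35.3% with L-Tyr, and 38.4, 48.1 and 44.8% with 5-Brd-2′-dU. The lowest control share had a 95% Wilson interval of 53.1 to 55.3%, and the highest exposed share, of L-Tyr library 2, one of 47.4 to 49.8%. The log2 ratio of 5p to 3p counts was 0.65, 0.42 and 0.24 in the controls, -0.77, -0.08 and -0.88 with L-Tyr, and -0.68, -0.11 and -0.30 with 5-Brd-2′-dU. The difference from the control mean of 0.44 was -1.01 with L-Tyr and -0.80 with 5-Brd-2′-dU. Each exposure gave an exact two-sided permutation p of 0.1, the smallest that 3 against 3 libraries allow (0.2 adjusted over the 2 hairpins). Among 30 hairpins with both arms at a mean count of at least 50, limma on the same ratios gave an adjusted p of 0.51 for L-Tyr (SE 0.412) and of 0.348 for 5-Brd-2′-dU (SE 0.365), and it called none of the 30 in any comparison. The number at an unadjusted p under 0.05 was 2 with L-Tyr and 3 with 5-Brd-2′-dU. Ordered from the lowest difference, mir-151 was at place 7 of the 30 with L-Tyr and at place 8 with 5-Brd-2′-dU.

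Of these 30 hairpins, 2 (6.67%) had a lower ratio in every L-Tyr library than in any control, and 6 (20%) had one with 5-Brd-2′-dU. The 2 with L-Tyr, mir-151 and let-7d, were also among the 6 with 5-Brd-2′-dU, and both exposures were set against the same control libraries. Since both strands are counted in the same library, the ratio does not depend on the scaling between libraries. Without 5-Brd-2′-dU library 3 the difference of mir-151 was -0.83. The 2 exposures did not separate from each other, with a difference of 0.21 in the log2 ratio (exact permutation p = 0.6). Between the exposures it was 0.18 without that library. The log2 ratio of mir-28a varied widely, from 1.16 to 3.38 in control cells (ratios of 2.23 to 10.4) and from 1.53 to 8.02 with L-Tyr (ratios of 2.9 to 259), where the highest value comes from a library with 0 counts of the 3p strand, and its groups overlapped. The mean difference of L-Tyr from control in that log2 ratio was 1.35, and -0.73 without L-Tyr library 3, the library with 0 counts.

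**Figure D3:**
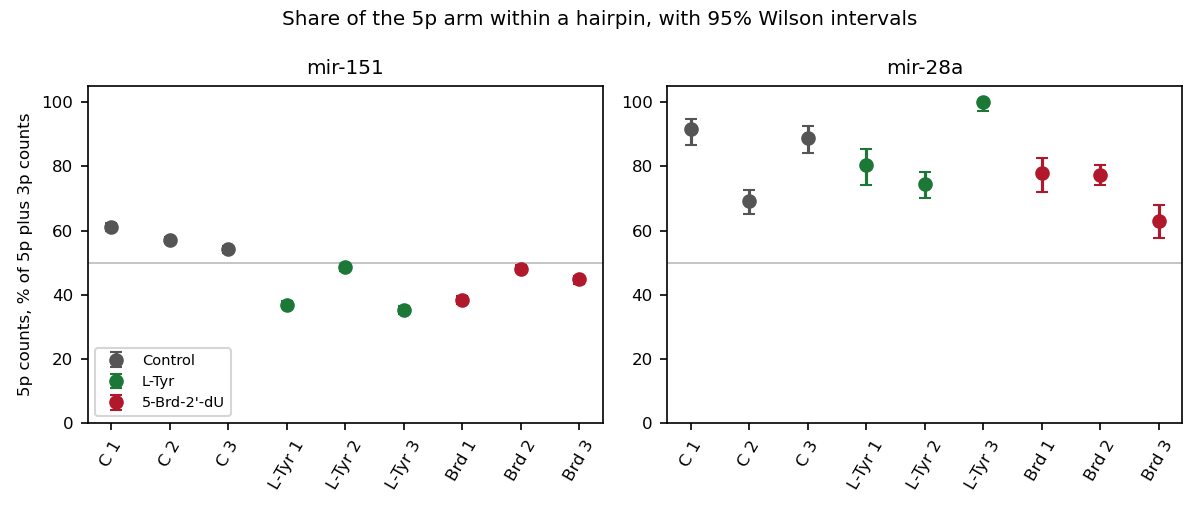
Share of 5p counts among the 5p and 3p counts (%) of mir-151 and mir-28a in each library (C, control; Brd, 5-Brd-2′-dU), with 95% Wilson intervals for counting error. For mir-151 the 3 controls lie between 54.2 and 61.1% and the 6 exposed libraries between 35.3 and 48.6%.

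Most single tags of mir-151 went in the direction of their arm, least clearly for miR-151-3p with 5-Brd-2′-dU. An arm is the sum of its tags, so this is no separate support. With L-Tyr, 10 of 12 miR-151-5p tags tested were lower than in control and 22 of 26 miR-151-3p tags were higher, with median log2 fold changes of -0.48 and 0.61, against -0.13 over all tags. With 5-Brd-2′-dU, 11 of 14 miR-151-5p tags were lower, with a median of -0.72, and 16 of 29 miR-151-3p tags were higher, with a median of 0.04, against -0.01 over all tags. Tags of 1 arm overlap in sequence and come from the same libraries, so they are not independent. No member tag passed the adjusted test in any comparison, while over all tags 1 of 1256 (0.0796%) did with L-Tyr, 0 of 1488 (0%) with 5-Brd-2′-dU and 2 of 1234 (0.162%) between the exposures. At an unadjusted p under 0.05 in edgeR there were 6 of 47, 5 of 53 and 1 of 48 member tags, where the share over all tags was 9.63%, 10.5% and 7.13%. DESeq2 called 2, 0 and 0 member tags, and 48 of 3829, 37 of 4269 and 41 of 4069 over all tags. The 2 with L-Tyr were the start 13 tag of miR-151-5p, which was lower, and a start 45 tag of miR-151-3p. The latter was higher (log2 fold change 2.74, DESeq2 adjusted p = 0.0182), and its last A does not match the hairpin. It had 19, 13 and 22 counts in the controls, 105, 78 and 88 with L-Tyr, and 21, 38 and 131 with 5-Brd-2′-dU. Without 5-Brd-2′-dU library 3, 13 of 15 miR-151-5p tags were lower than in control (median -0.77) and 19 of 30 miR-151-3p tags were higher (median 0.25), against a median of -0.12 over all tags.

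The most abundant miR-151-5p tag, that of start 8, had 944, 1832 and 1279 counts in the controls, 349, 865 and 490 with L-Tyr, and 617, 1228 and 844 with 5-Brd-2′-dU. Its log2 fold change with L-Tyr was -0.87 (SE 0.246, edgeR adjusted p = 0.275). The shorter tag of start 9 had 634, 1035 and 738 counts in the controls, 311, 411 and 638 with L-Tyr, and 318, 723 and 369 with 5-Brd-2′-dU, a log2 fold change of -0.85 with 5-Brd-2′-dU (SE 0.292, edgeR adjusted p = 0.277) and of -0.77 without 5-Brd-2′-dU library 3. The start 7 tag had log2 fold changes of -0.34 with L-Tyr and of -0.54 with 5-Brd-2′-dU (edgeR adjusted p = 0.887 and 0.689), the latter -0.50 without library 3.

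The most abundant miR-151-3p tag, of start 42, held 38.5% of the counts of its arm. It had 953, 2032 and 1311 counts in the controls, 1333, 1377 and 1780 with L-Tyr, and 1097, 1787 and 1434 with 5-Brd-2′-dU. Its log2 fold change was 0.58 with L-Tyr (SE 0.253, edgeR adjusted p = 0.48) and 0.04 with 5-Brd-2′-dU. The next, also of start 42 and 1 base shorter, held 15.1%, with log2 fold changes of 0.17 with L-Tyr and -0.16 with 5-Brd-2′-dU (edgeR adjusted p = 0.937 and 0.932). The third, of start 43, held 9.68%, with 168, 530 and 351 counts in the controls, 295, 452 and 495 with L-Tyr, and 298, 404 and 298 with 5-Brd-2′-dU (log2 fold change 0.75 and 0.04, edgeR adjusted p = 0.475 and 0.98). For 5-Brd-2′-dU without its library 3, the log2 fold change was -0.30 for the shorter start 42 tag and 0.08 for the start 43 tag.

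In miR-28a-5p the tag of start 15 was the most abundant, with 37.2% of the counts of its arm. It had 52, 176 and 77 counts in the controls, 23, 230 and 61 with L-Tyr, and 20, 203 and 42 with 5-Brd-2′-dU. The groups overlapped, and its log2 fold change was 0.40 with L-Tyr and -0.40 with 5-Brd-2′-dU (edgeR adjusted p = 0.937 and 0.916), the latter -0.17 without 5-Brd-2′-dU library 3. The third tag of this arm, of start 16, held 11%, with 0 to 94 counts in a library. The most abundant miR-28c tag, of start 44, had 20, 32 and 33 counts in the controls, 9, 63 and 41 with L-Tyr, and 59, 84 and 23 with 5-Brd-2′-dU. Its log2 fold change was 0.67 with L-Tyr and 0.95 with 5-Brd-2′-dU (edgeR adjusted p = 0.937 and 0.828). The next, of start 45, held 27.5% of the tag counts of miR-28c. It had 14, 38 and 7 counts in the controls, 0, 15 and 0 with L-Tyr, and 16, 87 and 22 with 5-Brd-2′-dU (log2 fold change -1.67 and 1.01, edgeR adjusted p = 0.91 and 0.847). The third, of start 47, held 9.13% of the tag counts, with 0 to 25 counts in a library, and was left untested by the filter. The mature name miR-28c, listed without letters, is part of the arm but not of these shares. It had 30, 38 and 36 counts in the controls, 8, 40 and 30 with L-Tyr, and 71, 96 and 25 with 5-Brd-2′-dU. With library 3 of 5-Brd-2′-dU left out, the log2 fold change was 1.28 for the start 44 tag and 1.22 for the start 45 tag.

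A 16-base tag of miR-151-5p, that of start 13 (agctcacagtctagta), is shown because it was listed at 0 in all L-Tyr libraries. It had 30, 108 and 75 counts in the controls and 2, 12 and 54 with 5-Brd-2′-dU. Set against 3 counts per library, the limit for a count of 0, it was at least 15.7-fold lower with L-Tyr than the control mean of 244.2 CPM. Its adjusted p was 0.155 in edgeR, 0.0212 without the filter on low counts and 1.36e-04 in DESeq2. The tag lacks the first bases of the heptamer.

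No tag of the table was longer than 20 bases, while the RefSeq strands of miR-28a and miR-708 have 22 or 23. In the 5 member arms, 50.3 to 68.4% of the tag counts came from tags of exactly 20 bases, against 54.3% over all tags. Whether the first base of a tag is the first base of the molecule, and whether the last base is its end, was not tested, and the starts below are those of the listed tags.

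The first base of miR-151-5p tags was spread over 8 starts. Start 9 held 31.4% of the counts, start 8 held 26.7%, start 7 held 16.2%, start 10 held 12.1% and start 11 held 10.2%. For miR-151-3p, start 42 held 58.3%. For miR-28a-5p, start 15 held 47.1% and start 13, where the RefSeq strand begins, held 23%. A spread of this kind was common in the table: over the 135 arms with a mean count of at least 100, the most abundant start held a median of 39.2% of the counts, with quartiles of 33.4 and 50.4%. In this order from the lowest, miR-151-5p was at place 22, miR-28a-5p at 90, miR-28c at 101 and miR-151-3p at 113.

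**Figure D4:**
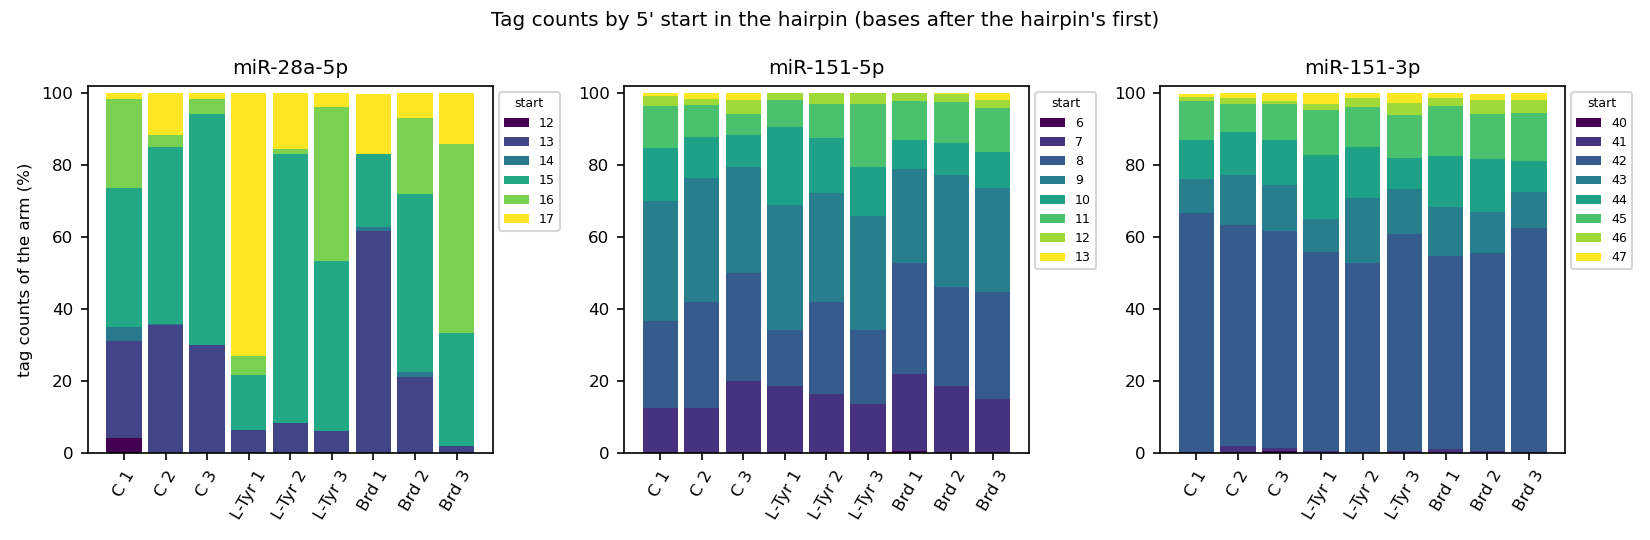
Share of tag counts (%) by the 5′ start of the tag in its hairpin, in each library (C, control; Brd, 5-Brd-2′-dU), for miR-28a-5p, miR-151-5p and miR-151-3p. The start shares of miR-151-5p vary between libraries, as start 8 does from 15.7 to 30.9%, and start 13 of miR-28a-5p holds 26.9 to 35.7% in control cells and 6.2 to 8.46% with L-Tyr.

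The share of the main start of miR-151-5p did not separate the groups. It was 32.4 ± 2.69% in control cells, 32.1 ± 2.26% with L-Tyr and 28.7 ± 2.52% with 5-Brd-2′-dU (SD, n = 3, exact permutation p = 1 and 0.2 relative to control). For miR-151-3p the share at start 42 was 62.6 ± 3.3% in control cells, 56.1 ± 3.77% with L-Tyr and 57.1 ± 4.82% with 5-Brd-2′-dU (exact permutation p = 0.2 and 0.3). Without 5-Brd-2′-dU library 3 the difference of 5-Brd-2′-dU from control was -3.85 percentage points for miR-151-5p and -8.27 for miR-151-3p. Some other starts did not overlap between groups. The share at start 10 of miR-151-5p was 21.6, 15.4 and 13.5% with L-Tyr and 8.17, 8.88 and 9.88% with 5-Brd-2′-dU, and that at start 46 of miR-151-3p was 1.08, 1.62 and 0.974% in control cells and 2.4, 3.93 and 3.69% with 5-Brd-2′-dU. Start 45 of miR-151-3p, at 10.8, 7.86 and 10% in control cells, was higher in every exposed library. It was 12.4, 11.2 and 12% with L-Tyr and 13.9, 12.4 and 13.2% with 5-Brd-2′-dU. Start 8 of miR-151-5p separated the exposures. All these starts were singled out after their values were seen and were not tested. Neither the number of starts that separate groups nor their share over all arms was counted. The miR-28c share at start 44 was higher in every L-Tyr library than in any control, at 100, 60.6 and 100% against 41.7, 39.5 and 39.8% (exact permutation p = 0.1, 0.4 adjusted over 4 arms). This rests on 9, 104 and 41 tag counts with L-Tyr, and the 95% Wilson interval of L-Tyr library 1 runs from 70.1 to 100%. With the 4 tags that are also listed under mir-28a left out, only the start 44 tag remains, and no share can be compared.

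The seed heptamer was counted at bases 2 to 8 over all tags. Tags of 2 hairpins held it there, 2 tags of mir-151 with 94.8% of the counts and 3 tags of mir-28a with 5.2%. Most of the tag counts with this heptamer at bases 2 to 8 thus came from the start 9 tags of mir-151. Whether the listed starts are those of loaded strands was not tested, so this does not show which seed miR-151 carries. In miR-28a-5p itself 75.9% of the tag counts came from tags without the whole heptamer, since they began after its first base. The start and heptamer shares of miR-28a-5p leave out the start 44 tag of mir-28c (364 counts). That tag also matches the mir-28a locus and holds the heptamer at bases 1 to 7. Within miR-151-5p, 16.2% of counts held it at bases 4 to 10, 26.7% at bases 3 to 9 and 12.1% at bases 1 to 7.

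The summed level of tags with the heptamer at bases 2 to 8 was highest in control cells and lowest with 5-Brd-2′-dU. It was 6734, 5271 and 5821 CPM in the controls, 5026, 3961 and 4079 with L-Tyr, and 3706, 3478 and 2905 with 5-Brd-2′-dU. No 2 of the 3 groups overlapped, and each pair gave an exact permutation p of 0.1, the smallest possible. The sum was added after the data were seen, and these p-values are not adjusted. Single arms often separated too. Of 281 arms, 37 (13.2%) were lower in all 5-Brd-2′-dU libraries than in all controls, and 22 of 251 (8.76%) than in all L-Tyr libraries. The share for L-Tyr relative to control was not counted. The mean of the sum was 5942 ± 739.3, 4355 ± 583.7 and 3363 ± 412.7 CPM (SD, n = 3). The difference from control was -1587 CPM with L-Tyr and -2579 CPM with 5-Brd-2′-dU, and -2350 CPM without 5-Brd-2′-dU library 3. Scaled by the total count, without TMM, L-Tyr and control overlapped (exact permutation p = 0.3), and 5-Brd-2′-dU stayed below both other groups. This sum repeats the levels of miR-151-5p in other terms, since its share at start 9 did not separate the groups.

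**Figure D5:**
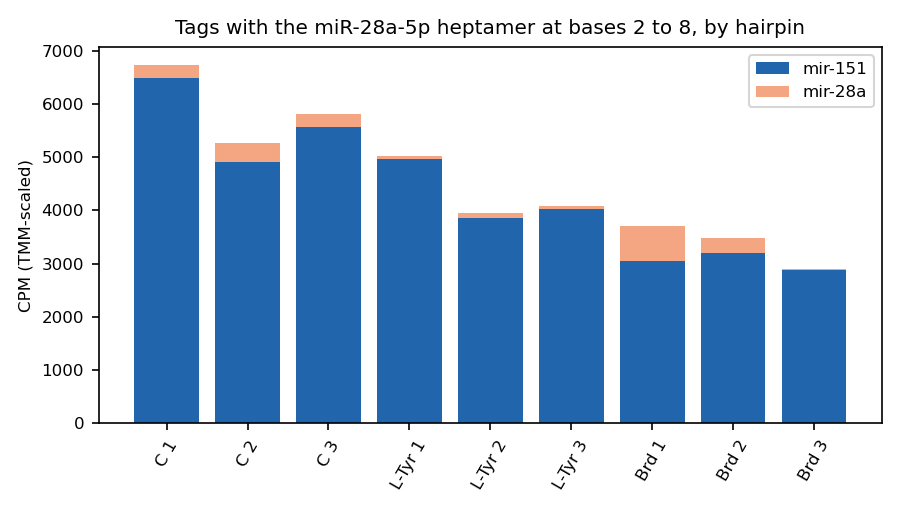
CPM (TMM-scaled) of all tags with the heptamer of miR-28a-5p at bases 2 to 8 in each library (C, control; Brd, 5-Brd-2′-dU), stacked by hairpin. The totals are 5271 to 6734 CPM in control libraries and 2905 to 3706 CPM with 5-Brd-2′-dU, and mir-151 makes up most of each bar.

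The share that mir-28a gave was small and varied in another way. The share of miR-28a-5p tag counts with the heptamer at bases 2 to 8 was 26.9, 35.7 and 30.1% in control cells, 6.58, 8.46 and 6.2% with L-Tyr, and 61.7, 21.3 and 1.96% with 5-Brd-2′-dU. All L-Tyr libraries lay below all controls, a difference of -23.8 percentage points (exact permutation p = 0.1), on 10, 28 and 8 counts with L-Tyr against 49, 154 and 58 in the controls. This share was added after the data were seen, and its p is not adjusted. How many starts of other arms separate in this way was not counted. Other starts of this arm varied widely within L-Tyr, as start 17 did at 73, 15.4 and 3.88%. The 5-Brd-2′-dU libraries spread beyond both other groups, and their library 3 was the lowest of all 9. Their difference from control was -2.56 percentage points, and 10.6 without library 3. The most abundant of these tags, that of start 13, had a log2 fold change of -2.08 with L-Tyr (SE 0.984, edgeR adjusted p = 0.553).

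Last bases that do not match the hairpin, as an added A or U would give, were listed mainly for the 3p arms of mir-151 and mir-28a. Of the 46 miR-151-3p tags, 18 had 1 to 3 unmatched last bases, with 12.4% of the counts of the arm. A single unmatched T (U in RNA) held 7.85% and a single A 4.09%. In miR-28a-3p, 1 of 8 tags had such an end, a single A, with 59 counts or 8.15% of the arm. These counts came from control library 2 (17.1% of the arm) and 5-Brd-2′-dU library 2 (15.6%) only. In miR-151-5p, 1 tag with 0.0442% of the counts had such an end, and in miR-28a-5p none of 13 tags had one. The share over other arms was not counted. The share in miR-151-3p was 10.85 ± 1.792% in control cells, 12.98 ± 1.955% with L-Tyr and 13.5 ± 1.855% with 5-Brd-2′-dU (SD, n = 3), and the groups overlapped (exact permutation p = 0.2 for each exposure). The difference of 5-Brd-2′-dU from control was 2.65 percentage points, and 3.39 without 5-Brd-2′-dU library 3. The origin of these ends was not tested.

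Over the 9 libraries the arms of mir-151 did not vary together, with a Pearson r of 0.09 between their log2 CPM. The arms most like miR-151-5p among 129 arms were miR-30a-3p (r = 0.83), let-7a-2-5p and let-7a-1-5p (both r = 0.82), where the let-7a precursors share their mature strand. The arms most like miR-151-3p were miR-423-3p (r = 0.94), miR-652-3p and miR-744-5p (both r = 0.85). For miR-28c the highest value was 0.89 (miR-125a-3p), and for miR-28a-5p it was 0.59 (miR-98-5p). Without 5-Brd-2′-dU library 3, r between the arms of mir-151 was -0.04, that with miR-30a-3p was 0.82, that with miR-423-3p was 0.96 and that of miR-28c with miR-125a-3p was 0.90. The orders changed without this library. For miR-151-5p, miR-3963-5p then came first (r = 0.82, against 0.78 over 9 libraries) and miR-30a-3p was at place 2. For miR-151-3p, miR-423-3p stayed first and miR-652-3p was at place 4 (r = 0.88). The order for miR-28a-5p rested on this library, since without it miR-143-3p came first (r = 0.78, against -0.24 over 9 libraries) and miR-98-5p was at place 9 (r = 0.63). The points share their libraries and their scaling, and these values describe the 9 libraries, with no test.

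A further 10 hairpins that derive from transposable elements, mir-325, mir-330, mir-340, mir-345, mir-361, mir-374b, mir-374c, mir-421, mir-493 and mir-652, were set beside the members. In 9 of the 10 there were counts. None of their arms passed edgeR's test, out of 10 arms tested with L-Tyr, 11 with 5-Brd-2′-dU and 9 between the exposures. At an unadjusted p under 0.05 there were 3, 2 and 0, where the share over all arms was 13.6%, 19.9% and 12.7%. DESeq2 called 1, 0 and 0 of them, and 19, 28 and 13 over all arms. The 1 was miR-421-3p, with a mean of 126.1 CPM in control cells and listed at 0 in the L-Tyr libraries. The median log2 fold change relative to control was -0.63 with L-Tyr and -0.56 with 5-Brd-2′-dU, against -0.09 and -0.05 over all arms. The latter was -0.65 without 5-Brd-2′-dU library 3, against -0.09 over all arms. The largest level among them was that of miR-652-3p, with 5046 CPM in control cells, 9564 with L-Tyr and 7595 with 5-Brd-2′-dU (log2 fold change 0.95 and 0.64, edgeR adjusted p = 0.203 and 0.219). The next, miR-361-5p, had 2208, 1500 and 812.6 CPM (log2 fold change -0.54 and -1.40, edgeR adjusted p = 0.584 and 0.187).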

How the data were processed

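Small RNA was sequenced from 9 B16F1 libraries, 3 in each of the groups given by the sample labels. The authors deposited whole-number counts of reads per sequence tag (start in the hairpin, letters, hairpin name) or per mature name, made with Illumina's BaseSpace Small RNA application against mm9 and miRBase, per the study's methods. The study's methods state a range of read lengths for the alignment and full identity to the miRBase reference for a miRNA name, and tags with last bases that do not match the hairpin are listed all the same. Other filters on tags are not given in the sources used here. The authors' normalized table and their 3 DESeq2 comparison tables (fold changes and p-values) were not used. Counts per library (144452 to 424122) limit the precision of low tags.

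Counts were summed by hairpin and arm over all entries. Each comparison used its 6 libraries in edgeR 4.0.16 (TMM, filterByExpr, quasi-likelihood F test, R 4.3.3), with Benjamini-Hochberg adjustment over all arms or all tags and calls at an adjusted p under 0.05. Ratios of 5p to 3p counts (pseudocount 0.5) and shares were compared by exact two-sided permutation over libraries, and ratios of all hairpins also by limma 3.58.1, which was added after the data were seen, as were the counts of the heptamer at bases 2 to 8, the unmatched ends, the additional scalings, and the tag values and correlations without 5-Brd-2′-dU library 3. DESeq2 1.42.0 was an alternative. The steps were tested on simulated data. Tags were placed by exact match to NCBIM37 (mm9), and tags under 17 bases were not placed. Named were all member arms, the 3 most abundant tags of arms with a mean count of at least 100, the 3 arms most like each by Pearson r of log2 CPM (prior count 2), seed mates and the list of hairpins from transposable elements; the start 13 tag of mir-151 and let-7d were named after their values were seen. The members and lists were chosen with earlier results of these data known. The other alternatives were DESeq2's size factors, total-count scaling, leaving out mir-3963 (the most abundant hairpin), no filter or a minimum mean count of 50, 1 fit of all 9 libraries, a replicate block, unique tags, no mature names, arms divided at start 40, pseudocounts of 1 and 5, and leaving out each library. Same-numbered libraries did not deviate together (correlations of -0.11 to 0.05 over 296 arms), so the numbers were not taken as pairs. Python 3.11.15, numpy 2.4.6, scipy 1.17.1, pandas 2.3.3 and matplotlib 3.10.9 made the tables and figures.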

Additional observations from a re-analysis of the deposited data

How the results depend on the processing

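The 5 member arms stayed uncalled under all alternatives but 1: in the fit of all 9 libraries miR-151-5p passed for 5-Brd-2′-dU relative to control (log2 fold change -0.72, 1 member arm called). Member tags with L-Tyr numbered 0 in edgeR, 1 without a filter and 2 with DESeq2, where 1 of 1256, 11 of 3829 and 48 of 3829 were called over all tags. The lower mir-151 log2 ratio of 5p to 3p kept its direction when each library was left out in turn, from -1.26 to -0.86 with L-Tyr and from -0.93 to -0.64 with 5-Brd-2′-dU. The other alternatives gave the values of -1.01 and -0.80 again and are no further check of it, since they hardly touch the counts of this hairpin or reuse the difference. Numbers of arms called over all arms varied more. With L-Tyr they were 6, then 14 without a filter, 19 with DESeq2 and 0 to 10 when 1 library was left out, with each of the 6 moving the number by over 1.5 times. With 5-Brd-2′-dU they were 10, then 3 under total count, 3 with unique tags, 18 in the fit of 9 libraries, 50 without a filter, 28 with DESeq2 and 1 to 14 when 1 library was left out (1 without control library 1 or 2). Between the exposures they were 6, then 3 in the fit of 9 libraries, 30 without a filter, 13 with DESeq2 and 0 to 5 when 1 library was left out (0 without L-Tyr library 3, 3 without 5-Brd-2′-dU library 2).

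With the replicate block, 6, 1 and 0 arms were called in the 3 comparisons, no member among them, and the log2 fold change of miR-151-5p was -0.37 with L-Tyr and -0.66 with 5-Brd-2′-dU. In limma with the replicate block the ratio differences of mir-151 were -1.01 and -0.80 (adjusted p = 0.551 and 0.411). The numbers are not known to pair the libraries.

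Some directions turned. The difference in the log2 ratio of mir-28a with L-Tyr (1.35) was -0.73 without L-Tyr library 3, and that in the miR-28a-5p share with the heptamer with 5-Brd-2′-dU (-2.56 percentage points) was 10.6 without 5-Brd-2′-dU library 3. The miR-28a-5p share at start 15 with L-Tyr (-4.95 percentage points) was 10.3 without L-Tyr library 1, and further uncalled share differences turned as well. For L-Tyr relative to control, miR-28a-3p (main value 0.09) was -0.69 with the replicate block, -0.09 with unique tags and -0.86 to 1.18 when 1 library was left out. In the same comparison miR-28c (-0.19) was 0.01 under total count, 0.21 with unique tags, 0.67 by its most abundant tag and -0.71 to 0.19 when 1 library was left out, and miR-28a-5p (0.11) was -0.15 to 0.31. For 5-Brd-2′-dU relative to control, miR-28a-5p (0.21) was -0.40 by its most abundant tag, and miR-151-3p (0.16) was -0.07 to 0.32 when 1 library was left out. Between the exposures, miR-28a-5p (0.14) was -0.04 under total count, -0.13 with unique tags, -0.84 by its most abundant tag and -0.06 to 0.30 when 1 library was left out, and miR-151-5p (-0.26) was 0.22 by its most abundant tag. Taking the share of the most abundant single tag in place of the start, the miR-151-5p difference was -7.25 percentage points with L-Tyr, 1.41 with 5-Brd-2′-dU and 8.66 between the exposures, and that of miR-151-3p with L-Tyr was -1.24. The causes were not tested. With 3 libraries a group, no exact permutation p can fall under 0.1, and tags of mir-28a and mir-28c rest on few counts.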
